A study of Mus musculus with 18 samples.

Results

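The glycolysis and hypoxia-response genes were 35 of the 24028 genes in the count table, chosen by symbol as enzymes, transporters and regulators of glucose breakdown and as known targets or regulators of the hypoxia-inducible factor. All 35 passed the filter on low counts, which kept 13602 genes for testing. The symbols were drawn up with earlier results of these data known, so the calls below describe these genes and are no independent support for a choice of them.

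Polyadenylated RNA was read from C2C12, an immortalised mouse myoblast line, in 18 libraries from separate cultures. Each of 3 lines was 1 clone with a doxycycline-inducible, codon-altered transgene kept under puromycin selection, which encoded mouse Dux, human DUX4 or firefly luciferase. Dux and DUX4 are related double-homeobox transcription factors of the early embryo, and luciferase served as a protein with no role in transcription. The induced cultures of each line received 2 µg/ml doxycycline for 36 h and the uninduced cultures were left without it, with 3 cultures in each of the 6 groups. With 1 clone for each transgene, transgene and clone cannot be told apart, and the luciferase line carries the exposure to doxycycline without either factor. Total counts were between 11010586 and 17179642 per library. Levels are given as CPM, read counts scaled to a common library total with TMM factors, which allow for a few very abundant genes.

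Glycolysis splits glucose into pyruvate in the cytosol, and lactate dehydrogenase turns the pyruvate into lactate when mitochondria do not take it up. The hypoxia-inducible factor Hif1a is made continuously and is marked for destruction by oxygen-dependent prolyl hydroxylases, so that low oxygen raises the protein more than its mRNA. The stabilised factor binds a short DNA core in the promoters of glycolytic enzymes, glucose transporters and vessel growth factors, and proliferating myoblasts rely on glycolysis before they fuse and turn to respiration.

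Before the values, the promoters show which of these genes carry that core. RefSeq promoter windows of GRCm38.p6, from 250 bases before to 50 bases after the annotated start, were found for 32 of the 35 genes, and Ndrg1, Plod2 and Bhlhe40 had no entry. The letters ACGTG or GCGTG, searched on both strands, were in a window of 30 of the 32 genes (93.8%), against 46.7% of all 27025 genes with a window. The narrower ACGTG was in 23 of them (71.9%), against 21.8% of all genes. The longer CACGTG, which contains ACGTG on both strands, was in 4 (12.5%), against 8.09% of all genes. Some genes have several annotated starts, and the members had more windows per gene, 47 for 32 genes, against 32851 for 27025. Counted per window, the shares were 78.7% against 43.8% for ACGTG or GCGTG, 55.3% against 19.6% for ACGTG and 8.51% against 7.15% for CACGTG. The median GC content was 63.3% over the members' windows, against 52.7% over all windows, and its part in these shares was not tested. A match describes letters in a window and does not show that a factor binds there. The 7 windows below are shown because these genes cover the patterns that follow. Hk2, Pfkfb3 and Ankrd37 rose with both factors, Slc2a1 and P4ha2 rose with mouse Dux and not with human DUX4, and Pgk1 and Pdk1 fell with human DUX4. Hk2 also rose with luciferase, by less, Pgk1 also fell with luciferase, and Pdk1 also fell with mouse Dux. Pdk1 and P4ha2 had small called falls with luciferase, given below with their limits. Capitals mark the core on either strand, so that CACGT and CACGC are the same letters read from the other strand, and each window is printed 5′ to 3′ along its gene.
Hk2: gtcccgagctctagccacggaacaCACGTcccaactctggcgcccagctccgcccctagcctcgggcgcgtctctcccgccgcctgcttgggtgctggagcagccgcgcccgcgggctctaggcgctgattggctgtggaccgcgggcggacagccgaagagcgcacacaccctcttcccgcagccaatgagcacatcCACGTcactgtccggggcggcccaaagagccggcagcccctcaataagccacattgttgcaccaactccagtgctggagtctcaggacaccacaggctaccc
Pfkfb3: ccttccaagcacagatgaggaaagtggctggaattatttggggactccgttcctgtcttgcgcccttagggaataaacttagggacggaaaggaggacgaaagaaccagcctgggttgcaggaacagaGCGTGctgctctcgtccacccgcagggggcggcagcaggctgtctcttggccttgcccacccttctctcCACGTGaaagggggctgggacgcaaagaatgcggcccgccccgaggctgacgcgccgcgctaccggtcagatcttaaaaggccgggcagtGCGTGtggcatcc
Ankrd37: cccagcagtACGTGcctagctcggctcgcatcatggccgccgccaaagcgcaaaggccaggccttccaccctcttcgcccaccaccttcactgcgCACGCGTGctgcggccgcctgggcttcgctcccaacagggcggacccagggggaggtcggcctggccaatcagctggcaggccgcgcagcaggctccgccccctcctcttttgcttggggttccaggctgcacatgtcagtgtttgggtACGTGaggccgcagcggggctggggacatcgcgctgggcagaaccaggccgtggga
Slc2a1: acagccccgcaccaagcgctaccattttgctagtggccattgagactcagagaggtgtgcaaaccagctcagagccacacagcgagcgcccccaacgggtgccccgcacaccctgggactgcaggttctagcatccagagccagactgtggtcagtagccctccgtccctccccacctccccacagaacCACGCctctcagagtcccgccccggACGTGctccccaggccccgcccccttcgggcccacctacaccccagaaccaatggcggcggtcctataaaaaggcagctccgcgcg
P4ha2: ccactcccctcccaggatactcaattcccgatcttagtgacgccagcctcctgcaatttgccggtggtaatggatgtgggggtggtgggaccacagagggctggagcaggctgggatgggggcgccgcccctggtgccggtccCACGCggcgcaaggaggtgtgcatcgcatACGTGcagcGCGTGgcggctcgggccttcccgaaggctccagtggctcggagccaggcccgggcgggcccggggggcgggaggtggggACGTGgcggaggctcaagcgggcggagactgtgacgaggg
Pgk1: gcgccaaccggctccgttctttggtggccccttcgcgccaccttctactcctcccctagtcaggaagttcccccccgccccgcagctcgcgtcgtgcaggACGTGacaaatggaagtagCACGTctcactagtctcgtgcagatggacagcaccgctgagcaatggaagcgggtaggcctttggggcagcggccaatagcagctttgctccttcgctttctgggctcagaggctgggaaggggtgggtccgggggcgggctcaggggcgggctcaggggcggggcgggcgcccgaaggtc
Pdk1: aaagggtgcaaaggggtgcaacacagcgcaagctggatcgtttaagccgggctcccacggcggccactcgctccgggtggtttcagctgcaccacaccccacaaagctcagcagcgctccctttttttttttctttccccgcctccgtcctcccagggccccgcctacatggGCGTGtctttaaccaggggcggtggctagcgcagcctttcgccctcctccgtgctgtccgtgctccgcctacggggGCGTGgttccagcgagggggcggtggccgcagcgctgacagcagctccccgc
These windows lie in GRCm38.p6, Hk2 at chr6:82774405-82774704 on the minus strand, Pfkfb3 at chr2:11502041-11502340 on the minus strand, Ankrd37 at chr8:45999801-46000100 on the minus strand, Slc2a1 at chr4:119108495-119108794 on the plus strand, P4ha2 at chr11:54100674-54100973 on the plus strand, Pgk1 at chrX:106186850-106187149 on the plus strand, Pdk1 at chr2:71872974-71873273 on the plus strand. In the printed windows Pfkfb3, P4ha2 and Ankrd37 each held 4 cores, and Hk2, Slc2a1, Pgk1 and Pdk1 each held 2. The 4 of Pfkfb3 count its CACGTG once on each strand. Pfkfb3 and Pdk1 each had another window, not printed here, which held 1 core for Pfkfb3 and 0 for Pdk1. Slc2a1, which went in opposite directions with the 2 factors, and Hk2, which rose with both, thus held the same number, and the cores of Pdk1 were GCGTG.

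The transgene label was checked by Zscan4c, a target gene of mouse Dux, which averaged 18694 CPM in induced mouse Dux cultures and between 2.71 and 3.71 CPM in the other 5 groups. Summed over 9 myoblast markers, induced cultures had 1461 to 1557 CPM in the mouse Dux line against 1828 to 1910 CPM uninduced, 529 to 543 CPM in the human DUX4 line against 987 to 1040 CPM uninduced, and 2448 to 2550 CPM in the luciferase line against 3246 to 3267 CPM uninduced. Myod1, which sets myoblast identity, averaged 3.67 CPM in induced and 26.2 CPM in uninduced human DUX4 cultures. The markers did not all fall. In that line Myf5 had 131, 110 and 151 unscaled counts induced, against 111, 111 and 91 uninduced. In the mouse Dux line Des, the marker with most counts, had 15029, 12784 and 12208 induced, against 8125, 12621 and 11482 uninduced. Cdh15 had 835, 780 and 681 induced there, against 2164, 3442 and 2938 uninduced. Over 10 markers of other cell types the summed level stayed at or below 28.9 CPM in every group, and Ptprc of blood cells had 0 to 3 counts per library. Most of the sum in the luciferase line was the endothelial marker Cdh5, which averaged at most 0.145 CPM in each group of the factor lines, against 23.4 CPM in induced and 25.4 CPM in uninduced luciferase cultures. The macrophage marker Cd68 averaged 20.9 CPM in induced and 1.74 CPM in uninduced human DUX4 cultures. The part of these shifts in the results below was not tested, and in such pooled RNA fewer cells of a type and less RNA per cell cannot be told apart. The induced mouse Dux library 1 stood apart, with chi-square per degree of freedom of 34.2 and 36.7 against the other 2 libraries, which differed from each other by 2.15. To a lesser degree uninduced mouse Dux library 1 did so too, at 5.16 and 5.25 against the other 2, which differed by 1.26. The highest value in the human DUX4 and luciferase lines was 2.79. Scaling by library size alone, without TMM, would shift the median of all genes in the mouse Dux response by −0.24 on the log2 scale.

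With mouse Dux induced, 17 of the 35 genes rose and 11 fell at an adjusted p under 0.05 in edgeR's quasi-likelihood test, with Benjamini-Hochberg adjustment over all genes tested. That is 80% of the members, against 68.9% of all genes called in this comparison (34.1% higher and 34.8% lower). With human DUX4 induced, 14 rose and 15 fell, 82.9% against 67.6% of all genes (34.4% higher and 33.1% lower). With luciferase induced, 6 rose and 18 fell, 68.6% against 31.1% of all genes (14.7% higher and 16.4% lower). The median log2 fold change was 0.13 with mouse Dux, −0.07 with human DUX4 and −0.29 with luciferase, where the medians of all genes were −0.01, 0 and 0. The median size of the change regardless of sign was 0.56, 0.51 and 0.36 for the members, against 0.44, 0.48 and 0.17 for all genes. The difference between the 2 factors' responses passed the same test for 31 members, 16 higher and 15 lower with mouse Dux, where 65.2% of all genes passed (32.9% higher and 32.3% lower). It was not called for Bnip3, Pdk1, Aldoc and Adm, with edgeR adjusted p of 0.464, 0.299, 0.312 and 0.0615. Both factors gave a called change in 22 members, of which 6 rose in both, 5 fell in both and 11 went in opposite directions. This joint split was not counted over all genes, so it does not set these members apart.

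**Figure D1:**
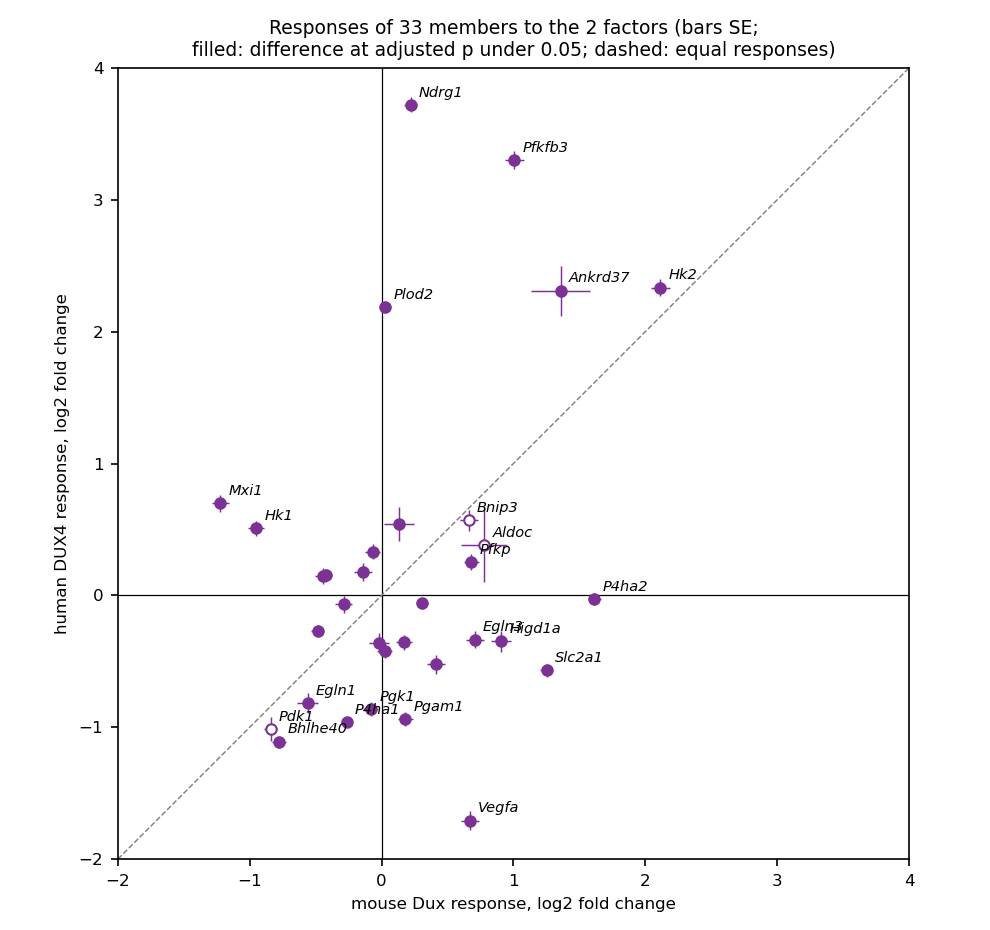
Response to mouse Dux (x axis) against response to human DUX4 (y axis), as log2 fold changes of induced over uninduced cultures with SE bars, for 33 members (Adm and Car9, with few counts in the human DUX4 line, are left out). Ndrg1 and Plod2 lie near 0 on the mouse Dux axis and at 3.72 and 2.19 on the human DUX4 axis, Hk2 lies near the dashed line of equal responses, and Vegfa, Slc2a1 and P4ha2 lie to the lower right.

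Among the oxygen sensors and transcription regulators, the mRNA of Hif1a fell with both factors. Hif1a had 203, 217 and 233 CPM in induced mouse Dux cultures, against 310, 308 and 299 CPM uninduced, a log2 fold change of −0.49 ± 0.05 (SE) with an edgeR adjusted p of 3.44e-08. It had 214, 226 and 212 CPM in induced human DUX4 cultures, against 267, 255 and 264 CPM uninduced, a log2 fold change of −0.27 (edgeR adjusted p 5.81e-05). Cultures of the luciferase line had 284, 281 and 274 CPM induced, against 274, 278 and 288 CPM uninduced, and these groups overlapped. All induced factor cultures thus lay below their own uninduced cultures. The fall with mouse Dux differed from that with human DUX4 by −0.22 (edgeR adjusted p 0.00981), and by −0.14 without mouse Dux replicate 1 in both groups (edgeR adjusted p 0.0136).

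Mxi1, a Max partner that opposes Myc, went in opposite directions. Mxi1 had 21.7, 18.4 and 22.1 CPM in induced mouse Dux cultures, against 49.7, 48.3 and 47.5 CPM uninduced. Cultures of the human DUX4 line had 34.0, 33.5 and 35.7 CPM induced, against 20.6, 21.7 and 21.2 CPM uninduced. The luciferase line had 42.8, 40.5 and 40.005 CPM induced, against 35.8, 38.4 and 35.8 CPM uninduced. The log2 fold changes were −1.22 ± 0.06 with mouse Dux and 0.70 ± 0.06 with human DUX4 (SE), and they differed by −1.92 (edgeR adjusted p 5.39e-13). The rise of 0.16 with luciferase was lost, with edgeR adjusted p between 0.0546 and 0.161, when any of luciferase induced libraries 1, 2 or 3 or uninduced libraries 1 or 3 was left out.

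The prolyl hydroxylase Egln1, which marks Hif1a for destruction, fell by 0.56 with mouse Dux and by 0.82 with human DUX4 on the log2 scale. Its relative Egln3 rose by 0.71 with mouse Dux and fell by 0.34 with human DUX4 and by 0.46 with luciferase. Bhlhe40, a repressor that also sets circadian timing, fell by 0.78 with mouse Dux and by 1.11 with human DUX4, and rose by 0.47 with luciferase. The histone demethylase Kdm3a rose by 0.33 with human DUX4 and by 0.15 with luciferase, the second of these lost when luciferase induced libraries 1 or 2 or any uninduced one was left out (edgeR adjusted p 0.0771 to 0.179). In the mouse Dux line Kdm3a had 65.6 to 73.9 CPM induced and 73.4 to 74.9 CPM uninduced, which overlapped.

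Of the transporters, Slc2a1 encodes GLUT1, the basal glucose transporter of proliferating cells. Slc2a1 had 193, 206 and 208 CPM in induced mouse Dux cultures, against 88.7, 85.6 and 80.7 CPM uninduced. The human DUX4 line had 70.8, 74.8 and 68.1 CPM induced, against 105, 105 and 107 CPM uninduced. The luciferase line had 119, 125 and 120 CPM induced, against 127, 126 and 128 CPM uninduced. Every induced mouse Dux culture lay above every culture of the other groups, and every induced human DUX4 culture lay below them. The log2 fold change was 1.25 ± 0.05 with mouse Dux and −0.57 ± 0.05 with human DUX4 (SE), which differed by 1.82 (edgeR adjusted p 2.98e-14). Slc16a3, the lactate exporter MCT4, rose by 0.54 with human DUX4 (edgeR adjusted p 0.000957). Slc16a3 had 26.0 to 34.1 CPM in induced and 26.6 to 29.3 CPM in uninduced mouse Dux cultures, and at most 0.835 CPM in any luciferase culture.

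**Figure D2:**
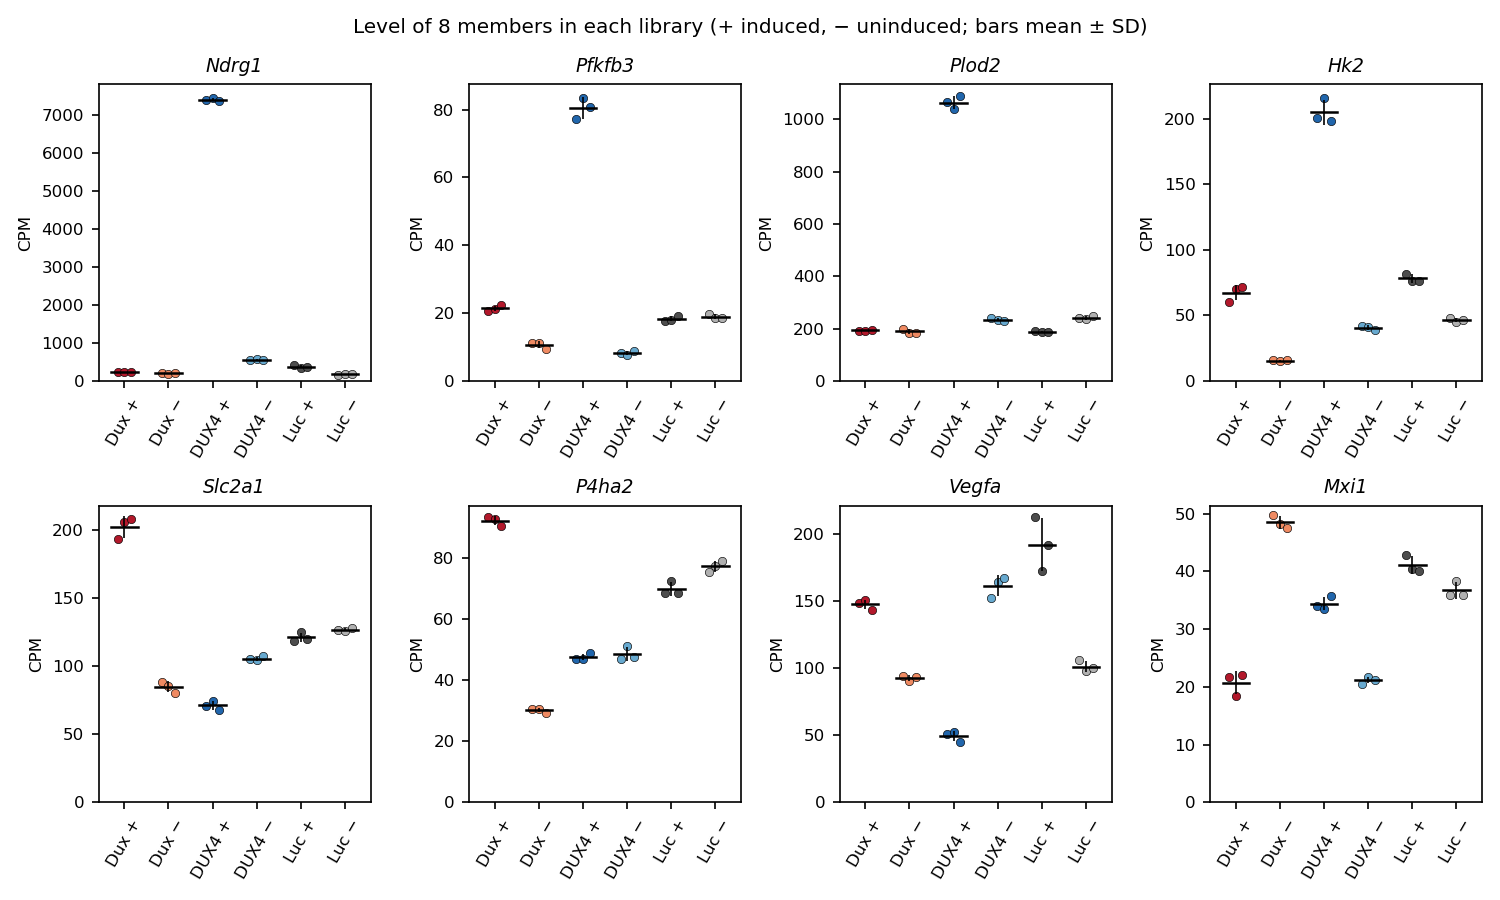
CPM in each library (points) for 8 members, with the group mean and SD as bars and each axis starting at 0; each line's induced cultures (+) stand left of its uninduced ones (−). Ndrg1 is between 7375 and 7446 CPM and Plod2 between 1039 and 1087 CPM in induced human DUX4 cultures, far above every other group, while Slc2a1 and P4ha2 are highest in induced mouse Dux cultures.

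The 14 glycolytic enzymes did not move as a block with either factor, while most fell with luciferase. With mouse Dux 6 rose, 4 fell and 4 were not called. With human DUX4 6 rose, 5 fell and 3 were not called, and with luciferase 1 rose, 11 fell and 2 were not called. Of all genes, 34.1% rose and 34.8% fell with mouse Dux, and 34.4% rose and 33.1% fell with human DUX4. With luciferase 14.7% of all genes rose and 16.4% fell.

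The first step of the pathway, the trapping of glucose by hexokinase, had the largest changes of the enzymes in both factor lines. Hk2 encodes the inducible hexokinase of muscle and growing cells. Hk2 had 60.6, 70.5 and 71.4 CPM in induced mouse Dux cultures, against 16.0, 15.1 and 15.7 CPM uninduced. With human DUX4 it had 201, 216 and 198 CPM induced, against 42.0, 41.2 and 38.6 CPM uninduced. The luciferase line had 81.9, 76.3 and 76.5 CPM induced, against 47.8, 45.0 and 46.5 CPM uninduced. All 3 lines were higher when induced, with no overlap of groups. The log2 fold changes were 2.11 ± 0.07 with mouse Dux, 2.34 ± 0.06 with human DUX4 and 0.75 ± 0.06 with luciferase (SE). The rise with mouse Dux exceeded that with luciferase by 1.36 (edgeR adjusted p 2.79e-10) and the rise with human DUX4 exceeded it by 1.58 (edgeR adjusted p 1.04e-11). The 2 factors differed by −0.22 (edgeR adjusted p 0.046), a call lost when any of human DUX4 induced 2, uninduced 2 or 3, or mouse Dux induced 1, uninduced 1 or 3 was left out (edgeR adjusted p 0.0584 to 0.166).

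Hk1, the housekeeping hexokinase, moved against Hk2 in the mouse Dux line. The log2 fold change of Hk1 was −0.95 ± 0.06 with mouse Dux (SE, edgeR adjusted p 3.39e-11) and 0.51 ± 0.06 with human DUX4 (SE, edgeR adjusted p 1.9e-07). Per kilobase of exon, Hk2 stood at 11.3 ± 1.01 and Hk1 at 10.3 ± 1.09 CPM in induced mouse Dux cultures, against 2.61 ± 0.0763 and 19.9 ± 0.506 CPM uninduced (SD, n = 3). In the human DUX4 line Hk2 stood at 34.3 ± 1.65 and Hk1 at 24.8 ± 0.0859 CPM per kilobase induced, against 6.80 ± 0.293 and 17.4 ± 0.561 CPM per kilobase uninduced (SD, n = 3). On that scale Hk1 exceeded Hk2 in all uninduced groups, and Hk2 exceeded Hk1 in induced human DUX4 cultures. The scale divides by all annotated exons of a gene merged, 8532 bases for Hk1 and 5969 for Hk2. Undivided counts in induced human DUX4 libraries were close, 3028, 3213 and 3151 for Hk1 against 2884, 3277 and 2959 for Hk2. The order there thus rests on the length used. In induced luciferase cultures Hk1 still exceeded Hk2, at 23.5 against 13.1 CPM per kilobase.

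In the upper steps of the pathway, phosphofructokinase Pfkp rose by 0.68 with mouse Dux and by 0.25 with human DUX4, and its liver isoform Pfkl fell by 0.42 with human DUX4 and by 0.42 with luciferase. Pfkl overlapped in the mouse Dux line, at 76.9 to 90.9 CPM induced and 80.3 to 84.7 CPM uninduced. Glucose phosphate isomerase Gpi1 fell by 0.43 with mouse Dux, rose by 0.15 with human DUX4 and fell by 0.21 with luciferase. Aldoa, the muscle aldolase, fell by 0.44 with mouse Dux and by 0.39 with luciferase. Its rise of 0.15 with human DUX4 (edgeR adjusted p 0.0444) was lost when any single library of that line was left out, with edgeR adjusted p from 0.0528 to 0.163. The brain isoform Aldoc was scarce, with 6.44, 6.16 and 4.62 CPM in induced mouse Dux cultures, against 3.14, 3.77 and 3.06 CPM uninduced. Aldoc had 1.60, 1.98 and 0.870 CPM in induced and 1.31, 1.09 and 0.981 CPM in uninduced human DUX4 cultures, which overlapped. In the luciferase line Aldoc had 1, 2 and 2 counts induced, against 7, 6 and 7 counts uninduced, a fall of 1.92 on the log2 scale (edgeR adjusted p 0.0221) that was lost without induced library 1 or 3 or uninduced library 3 (edgeR adjusted p 0.0517 to 0.0856). Per kilobase Aldoa exceeded Aldoc in every group, as with 189 against 1.76 CPM in induced mouse Dux cultures.

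Among the enzymes of the lower steps, Pgk1 and Pgam1 had the largest falls, both with human DUX4. Pgk1, phosphoglycerate kinase, had 405, 412 and 410 CPM in induced human DUX4 cultures, against 741, 755 and 735 CPM uninduced, a log2 fold change of −0.86 (edgeR adjusted p 3.75e-11). Pgam1, phosphoglycerate mutase, had a log2 fold change of −0.94 with human DUX4 (edgeR adjusted p 1.4e-11). Pgk1 and Pgam1 were also called lower with luciferase, at −0.52 and −0.54. Human DUX4 less luciferase was −0.34 for Pgk1 (edgeR adjusted p 0.000922) and −0.40 for Pgam1 (edgeR adjusted p 0.000272). Tpi1 fell by 0.29 with mouse Dux and by 0.54 with luciferase, and its groups overlapped in the human DUX4 line. Pkm, pyruvate kinase, rose by 0.31 with mouse Dux and fell by 0.36 with luciferase. The mouse Dux rise of Pkm was not called with scaling by library size alone (0.06, edgeR adjusted p 0.187).

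Ldha, the muscle subunit of lactate dehydrogenase, had 921, 762 and 765 CPM in induced mouse Dux cultures, against 743, 721 and 710 CPM uninduced. Cultures of the human DUX4 line had 579, 577 and 554 CPM induced, against 734, 734 and 723 CPM uninduced. With luciferase it had 272, 296 and 293 CPM induced, against 427, 418 and 428 CPM uninduced. Induced library 1 was the highest of the mouse Dux line. Ldha fell by 0.36 with human DUX4 and by 0.56 with luciferase. The rise with mouse Dux was 0.17 (edgeR adjusted p 0.015), and it was not called without induced library 1 (0.06, edgeR adjusted p 0.125) or without uninduced library 3 (edgeR adjusted p 0.0564). With library size alone the direction in the mouse Dux line turned for Ldha (−0.073) and for Pgam1 (−0.065), whose rise of 0.18 dropped to 0.08 without induced library 1.

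Gapdh, often used as a reference transcript, had 2555, 2067 and 1933 CPM in induced mouse Dux cultures, against 2388, 2457 and 2396 CPM uninduced. The human DUX4 line had 2511, 2464 and 2463 CPM induced, against 2261, 2111 and 2210 CPM uninduced. Cultures of the luciferase line had 1724, 1799 and 1764 CPM induced, against 2107, 2212 and 2184 CPM uninduced. The mouse Dux groups overlapped through induced library 1, and without that library Gapdh was called lower (−0.28, edgeR adjusted p 1.34e-08), as was Pgk1 (−0.18, edgeR adjusted p 5.7e-05). The luciferase fall of Gapdh by 0.30 was called (edgeR adjusted p 0.00242). Its human DUX4 rise of 0.18 (edgeR adjusted p 0.0305) was lost in 5 of the 6 fits that left out 1 library of that line, the exception being uninduced library 1.

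Eno1, enolase, fell by 0.36 with human DUX4 and by 0.46 with luciferase and overlapped in the mouse Dux line. Reads of Eno1 and of its near-identical copy Eno1b may be divided between them, and the same holds for Gapdh and the copy Gm12070. The copies gave log2 fold changes of −0.40 (Eno1b) and 0.18 (Gm12070) with human DUX4, where Eno1 and Gapdh gave −0.36 and 0.18. Several members also share exons with genes on the other strand, and whether the counting used strand is not stated. Hif1a and Pkm each also share exon sequence with a gene on the same strand.

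**Figure D3:**
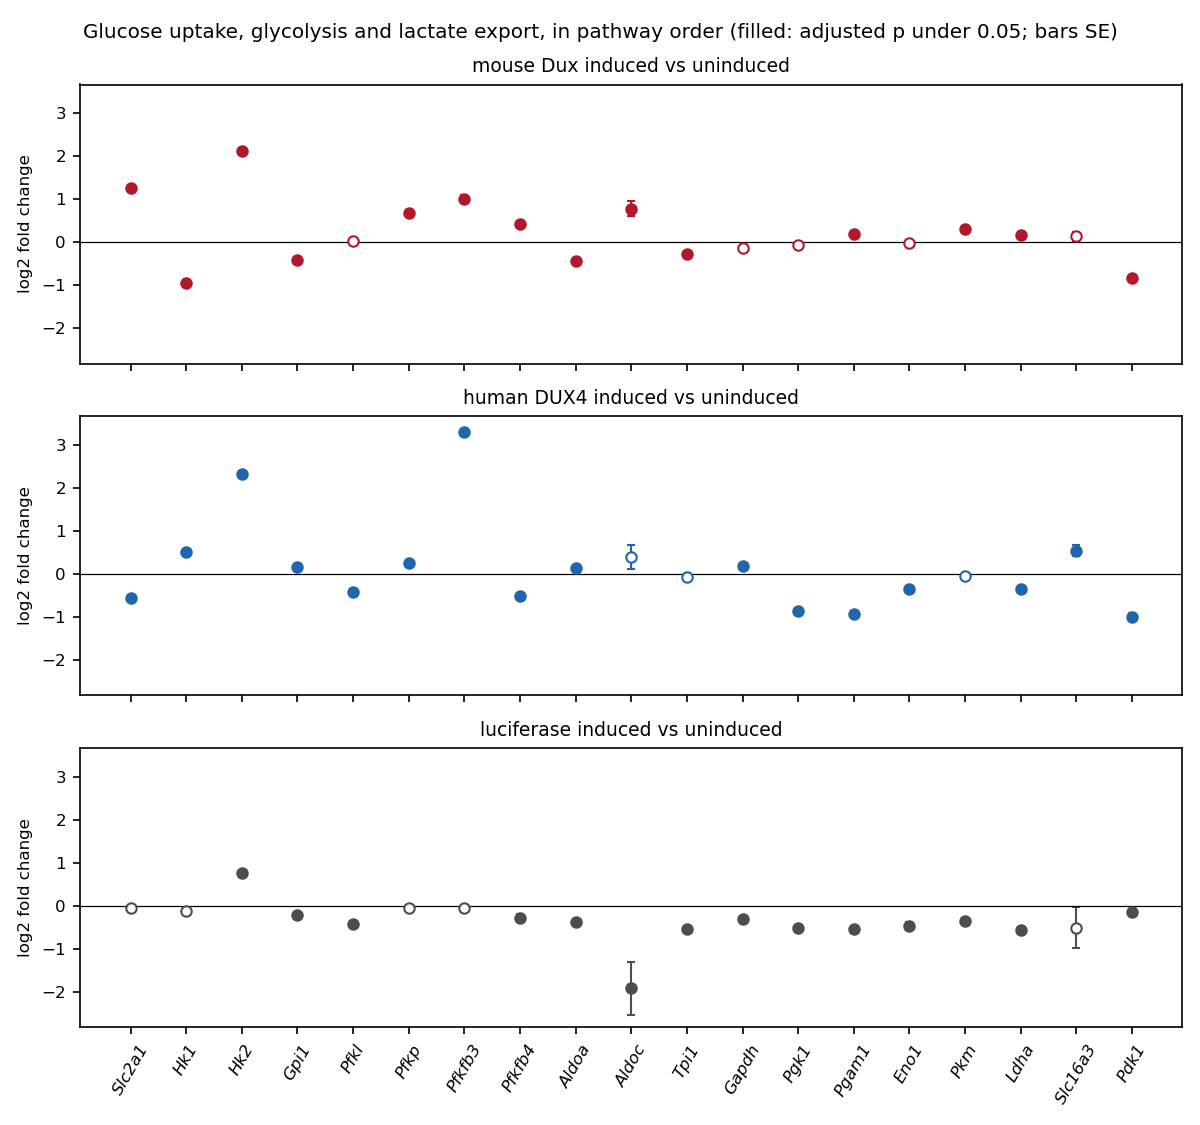
Log2 fold change of induced over uninduced cultures with SE bars for 19 members in pathway order from glucose uptake to lactate export and pyruvate oxidation, with 1 panel for each line and filled points for an adjusted p under 0.05. Hk2 is above 0 in all 3 panels, Slc2a1 is above 0 with mouse Dux and below with human DUX4, and most enzymes are below 0 in the luciferase panel.

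Of the flux regulators, Pfkfb3 had the largest response. Pfkfb3 makes fructose 2,6-bisphosphate, the strongest activator of phosphofructokinase. Pfkfb3 had 77.2, 83.5 and 80.6 CPM in induced human DUX4 cultures, against 8.13, 7.57 and 8.83 CPM uninduced. In the mouse Dux line it had 20.7, 21.3 and 22.3 CPM induced, against 11.1, 11.3 and 9.56 CPM uninduced. The luciferase line had 17.7, 18.01 and 19.1 CPM induced, against 19.7, 18.5 and 18.4 CPM uninduced, which overlapped. The log2 fold changes were 3.30 ± 0.07 with human DUX4 and 1.01 ± 0.08 with mouse Dux (SE), and mouse Dux less human DUX4 was −2.29 (edgeR adjusted p 5.28e-13). Its relative Pfkfb4 rose by 0.41 with mouse Dux and fell by 0.52 with human DUX4. Pfkfb4 fell by 0.29 with luciferase, a call lost without luciferase induced library 1 or 2 or uninduced library 2 (edgeR adjusted p 0.0574 to 0.136). Pdk1, the kinase that keeps pyruvate out of the mitochondrial dehydrogenase, fell by 0.84 with mouse Dux and by 1.01 with human DUX4. Its fall of 0.15 with luciferase was lost without induced library 2 or uninduced library 1 (edgeR adjusted p 0.0591 and 0.0699). Pdk1 had 3.04 to 3.69 CPM in induced human DUX4 cultures and 29.7 to 30.9 CPM in induced mouse Dux cultures.

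Of the secreted and cell-surface targets, Vegfa, the main growth factor of blood vessels, separated the 2 factors. Vegfa had 148, 150 and 144 CPM in induced mouse Dux cultures, against 94.1, 90.3 and 93.5 CPM uninduced. With human DUX4 it had 50.9, 52.1 and 44.9 CPM induced, against 152, 164 and 167 CPM uninduced. With luciferase it had 212, 172 and 191 CPM induced, against 106, 97.6 and 99.8 CPM uninduced. Induced cultures were thus above uninduced ones with mouse Dux and with luciferase, and below with human DUX4. The log2 fold changes were 0.67 ± 0.07, −1.71 ± 0.07 and 0.93 ± 0.07 (SE) with mouse Dux, human DUX4 and luciferase. The mouse Dux response was 2.38 above that of human DUX4 (edgeR adjusted p 1.02e-13). It was 0.26 below that of luciferase (edgeR adjusted p 0.0262), a call lost without luciferase induced library 1 or uninduced library 2 or 3 (edgeR adjusted p 0.0508 to 0.0906).

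Adm, the vasodilator adrenomedullin, had 60, 32 and 31 counts (3.95, 2.40 and 2.27 CPM) in induced mouse Dux cultures, against 4, 8 and 11 counts (0.340, 0.464 and 0.701 CPM) uninduced, a log2 fold change of 2.48 ± 0.33 (SE, edgeR adjusted p 2.11e-06). The human DUX4 line had 3 counts in all induced and 4 in all uninduced libraries, a ratio of 0.756 with a 95% exact interval of 0.111 to 4.47. In the luciferase line Adm had 0.124 to 0.323 CPM induced, against 0.276 to 0.404 CPM uninduced, which overlapped. Car9, the membrane carbonic anhydrase, had 0.592, 1.201 and 1.10 CPM in induced mouse Dux cultures, against 5.43, 4.87 and 6.82 CPM uninduced. The log2 fold change of Car9 was −2.58 ± 0.21 (SE, edgeR adjusted p 1.6e-09), the opposite direction to Adm and Vegfa in the same cultures. Car9 had 0.209, 0.264 and 0.335 CPM in induced human DUX4 cultures, against 0.438, 0.321 and 0.302 CPM uninduced, which overlapped. Cultures of the luciferase line had 4.42, 3.55 and 4.23 CPM induced, against 4.79, 4.88 and 5.39 CPM uninduced.

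The 3 collagen-modifying hydroxylases each had their own pattern. P4ha1 and P4ha2 are catalytic subunits of collagen prolyl 4-hydroxylase, and Plod2 hydroxylates lysines of collagen telopeptides. P4ha2 had 93.4, 93.0 and 90.5 CPM in induced mouse Dux cultures, against 30.6, 30.5 and 29.4 CPM uninduced. Cultures of the human DUX4 line had 47.0, 47.1 and 48.8 CPM induced, against 46.9, 51.2 and 47.6 CPM uninduced, which overlapped. The luciferase line had 68.5, 72.5 and 68.6 CPM induced, against 75.4, 77.5 and 78.9 CPM uninduced. The log2 fold change with mouse Dux was 1.61 ± 0.05 (SE, edgeR adjusted p 3.91e-16). The luciferase fall of 0.14 was lost without luciferase induced library 1 or 3 or uninduced library 2 or 3 (edgeR adjusted p 0.0516 to 0.0745).

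Plod2 rose with human DUX4. It had 1064, 1039 and 1087 CPM in induced human DUX4 cultures, against 239.5, 232 and 228 CPM uninduced. In the mouse Dux line it had 192, 192 and 196 CPM induced, against 199.7, 185 and 184 CPM uninduced, which overlapped. With luciferase it had 189.8, 188 and 187 CPM induced, against 239.9, 236 and 249.6 CPM uninduced. The log2 fold change with human DUX4 was 2.19 ± 0.04 (SE, edgeR adjusted p 1.77e-18), and mouse Dux less human DUX4 was −2.16 (edgeR adjusted p 4.64e-16). P4ha1 fell by 0.26 with mouse Dux, by 0.96 with human DUX4 and by 0.20 with luciferase.

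The largest change of the set was that of Ndrg1, a stress-responsive protein of lipid and vesicle traffic that is widely used as a hypoxia marker. Ndrg1 lies on chr15:66929318-66969640, minus strand, in GRCm38. Ndrg1 had 7399, 7446 and 7375 CPM in induced human DUX4 cultures, against 564, 579 and 542 CPM uninduced. In the mouse Dux line it had 227, 235 and 233 CPM induced, against 201, 194 and 201 CPM uninduced. Cultures of the luciferase line had 411, 347 and 374 CPM induced, against 169, 179.9 and 175 CPM uninduced. The log2 fold change was 3.72 ± 0.06 with human DUX4 (SE, edgeR adjusted p 5.67e-20), and it exceeded the luciferase rise of 1.11 by 2.61 (edgeR adjusted p 1.08e-15). The mouse Dux rise of 0.22 (edgeR adjusted p 0.000985) turned to −0.024 with scaling by library size alone.

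Ndrg1 alone took 0.737% of all counts in induced human DUX4 libraries, against 0.0575% uninduced, and it held the most counts of all 24028 genes in each of the 3 induced libraries. Per kilobase of exon it stood at 1123 ± 5.52 CPM there, above Gapdh at 600 ± 6.65 and Pkm at 515 ± 5.86 CPM per kilobase (SD, n = 3). The 35 genes together took 1.76 to 1.78% of counts in induced human DUX4 libraries, against 1.11 to 1.13% uninduced. Without Ndrg1 these shares were 1.03 to 1.05% induced, against 1.05 to 1.07% uninduced. In the other lines the 35 genes took 1.07 to 1.22% induced against 1.28 to 1.30% uninduced with mouse Dux, and 0.813 to 0.830% induced against 0.958 to 0.974% uninduced with luciferase. These are shares of unscaled counts. With TMM scaling the sum of the 35 genes did not fall with mouse Dux, at 11926 to 13622 CPM induced and 11959 to 12175 CPM uninduced, which overlapped.

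Among the other mitochondrial and hypoxia targets, Ankrd37, a small ankyrin-repeat protein, had 6.64, 4.28 and 4.32 CPM in induced mouse Dux cultures, against 2.38, 1.97 and 1.72 CPM uninduced. The human DUX4 line had 12.4, 12.1 and 11.2 CPM induced, against 1.81, 3.08 and 2.26 CPM uninduced. The luciferase line had 0.809, 0.323 and 0.417 CPM induced, against 1.10, 0.853 and 0.621 CPM uninduced, which overlapped. The log2 fold changes were 1.36 ± 0.23 with mouse Dux and 2.31 ± 0.19 with human DUX4 (SE), which differed by −0.95 (edgeR adjusted p 0.0118). Bnip3, a mitophagy receptor, rose by 0.66 with mouse Dux and by 0.57 with human DUX4. Higd1a, a small protein of the inner mitochondrial membrane, rose by 0.91 with mouse Dux and fell by 0.35 with human DUX4 and by 0.56 with luciferase.

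Many members also changed in the luciferase line, where luciferase protein and doxycycline cannot be told apart. In that line 18 members fell, and 11 of the 14 enzymes were among them, with log2 fold changes from −1.92 for Aldoc to −0.21 for Gpi1. Hk2, Vegfa, Ndrg1 and Bhlhe40 were the larger of the 6 rises. The response to mouse Dux was higher than that to luciferase for 20 members and lower for 11, where 60% of all genes differed (30.4% higher and 29.5% lower). The response to human DUX4 was higher for 16 and lower for 9, where 55% of all genes differed (28.3% higher and 26.7% lower). For the 14 enzymes both factors gave 10 higher and 2 lower responses than luciferase. A higher response can be a smaller fall, as for Tpi1 with mouse Dux at −0.29, against −0.54 with luciferase. That difference of 0.26 was not called without luciferase induced library 1 (edgeR adjusted p 0.0551), was 0.14 without mouse Dux induced library 1 and was −0.0052 with library size alone. The 2 comparisons share the luciferase cultures. Groups did not overlap for 28 members with mouse Dux, 30 with human DUX4 and 29 with luciferase, where 65.8%, 74.3% and 52.8% of all genes did not overlap.

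The clones differed without induction. Between the uninduced mouse Dux clone and the uninduced luciferase clone 15 members were higher and 12 lower, where 65.3% of all genes differed (32.2% higher and 33.1% lower). Between the uninduced human DUX4 clone and the uninduced luciferase clone 14 were higher and 17 lower, where 73% of all genes differed (36% higher and 37% lower). Slc16a3 had the largest gap, at 26.6 to 29.3 CPM in the mouse Dux clone and 11.4 to 14.6 CPM in the human DUX4 clone, against 0.635 to 0.760 CPM in the luciferase clone. Hk2 was 1.58 lower on the log2 scale in the mouse Dux clone than in the luciferase clone (edgeR adjusted p 2.37e-13). Induced mouse Dux cultures, at 60.6 to 71.4 CPM, therefore stayed below induced luciferase cultures, at 76.3 to 81.9 CPM, in spite of their larger fold change. Pdk1 was 2.75 lower (edgeR adjusted p 3.46e-18) and Car9 3.78 lower (edgeR adjusted p 7.34e-11) in the human DUX4 clone, and Ndrg1 was 1.68 higher there (edgeR adjusted p 5.53e-16).

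**Figure D4:**
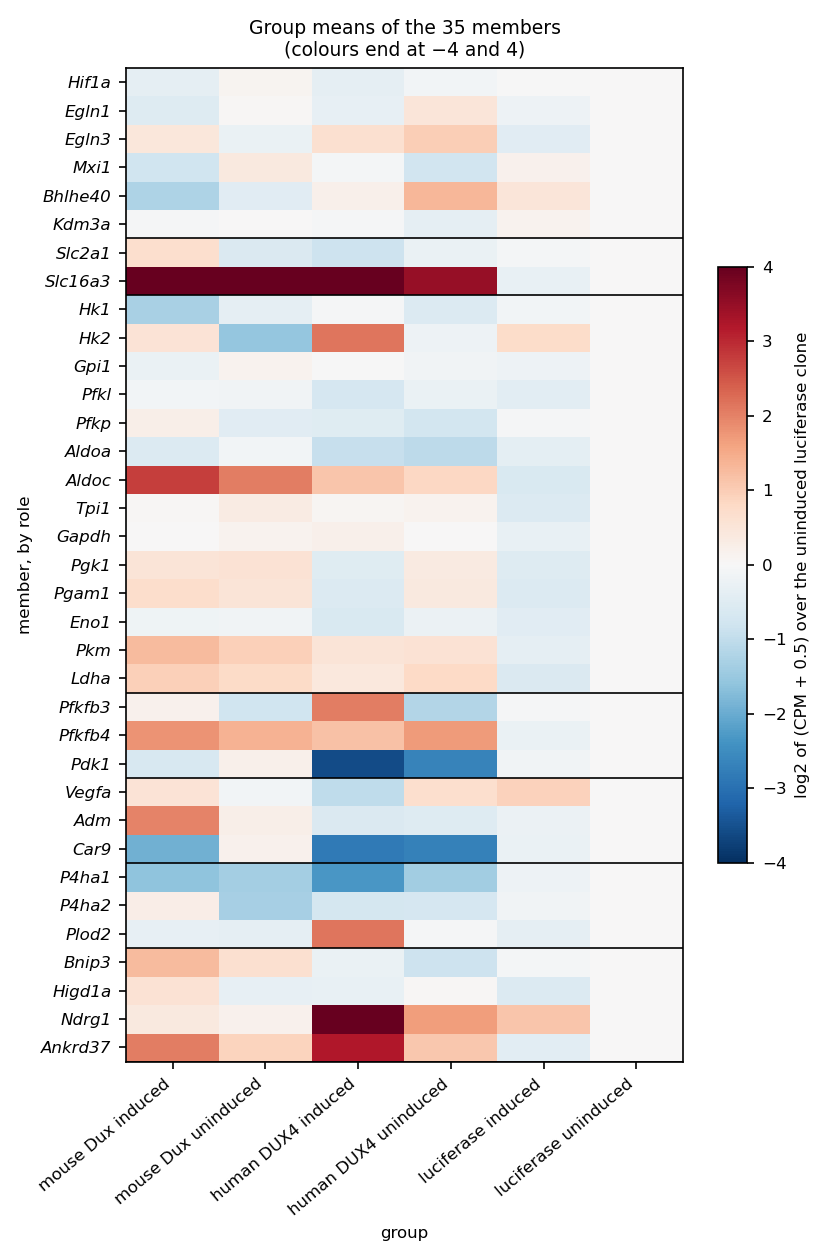
Group means of the 35 members, ordered by role with black rules between roles, as log2 of (CPM + 0.5) over the uninduced luciferase cultures (last column, 0 by construction); colours end at −4 and 4, and Slc16a3 and Ndrg1 pass that end. Slc16a3 is above 0 and P4ha1 below 0 in all 4 columns of the factor clones, Pdk1 and Car9 are well below 0 in both human DUX4 columns, and induced and uninduced columns differ for Hk2, Pfkfb3, Plod2 and Ndrg1.

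Other genes of glucose metabolism were followed through a list of 35, of which 28 were tested. With mouse Dux 9 rose and 9 fell (64.3% of those tested, against 68.9% of all genes) and the median log2 fold change was −0.03. With human DUX4 12 rose and 11 fell (82.1%, against 67.6% of all genes), with a median of 0.09. Mpc1, a subunit of the mitochondrial pyruvate carrier, averaged 698 ± 11.3 CPM in induced and 121 ± 5.21 CPM in uninduced human DUX4 cultures (SD, n = 3), a log2 fold change of 2.53 ± 0.07 (SE, edgeR adjusted p 9.96e-17). Pdk4, a second kinase of pyruvate dehydrogenase, averaged 1.75 ± 0.456 CPM in induced and 50.1 ± 0.434 CPM in uninduced human DUX4 cultures (SD, n = 3), and fell by 4.83 on the log2 scale. Pdk4 fell by 1.07 and Pdk2 by 1.33 with mouse Dux, and Eno2, the neuronal enolase, fell by 0.76. Tigar, a fructose bisphosphatase, rose by 1.42 with mouse Dux and by 1.29 with human DUX4. The glycogen branching enzyme Gbe1 rose by 1.16 with human DUX4. Slc2a3, the transporter GLUT3, rose by 2.73 with mouse Dux at 0.645 CPM induced against 0.0863 CPM uninduced. In the human DUX4 line Slc2a3 and Slc2a4 each had 1 count induced against 10 uninduced, a ratio of 0.101 with a 95% exact interval of 0.00232 to 0.709. Slc2a4 was not called when human DUX4 induced library 2 or 3 or uninduced library 3 was left out (edgeR adjusted p 0.0737 to 0.133).

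Of 41 other genes of the hypoxia pathway 39 were tested. With mouse Dux 17 rose and 11 fell (71.8% of those tested, against 68.9% of all genes) and the median log2 fold change was 0.14. With human DUX4 15 rose and 18 fell (84.6%, against 67.6% of all genes), with a median of −0.31. Epas1, which encodes the second hypoxia-inducible factor, averaged 1.08 CPM in induced and 0.140 CPM in uninduced mouse Dux cultures, and 3.88 CPM in induced and 0.803 CPM in uninduced human DUX4 cultures, and it had no count in the luciferase line. Its log2 fold changes were 2.92 with mouse Dux and 2.30 with human DUX4. Rora, a nuclear receptor, rose by 3.54 with mouse Dux and by 3.27 with human DUX4. Arnt2, a partner of the hypoxia-inducible factors, rose by 4.41 with human DUX4, to 53.2 CPM against 2.50 CPM uninduced, and averaged 17.4 CPM in induced and 28.3 CPM in uninduced mouse Dux cultures. The adenylate kinase Ak4 averaged 22.3 ± 0.694 CPM in induced and 0.881 ± 0.267 CPM in uninduced mouse Dux cultures (SD, n = 3), a rise of 4.70. The chemokine receptor Cxcr4 fell by 2.34 with mouse Dux and by 3.23 with human DUX4. Bhlhe41 and Zfp395 fell by 3.12 and by 1.60 with mouse Dux. Edn1, the vasoconstrictor endothelin, had 3 counts induced against 85 uninduced in the human DUX4 line, a ratio of 0.0356 with a 95% exact interval of 0.0072 to 0.108.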

How the data were processed

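Per the labels' protocols, total RNA was made into TruSeq libraries and sequenced in 14-plex pools, and the labels do not tie libraries to pools, so no batch was tested. The deposited values are whole-number read counts per gene, not normalized. The build was mm10 and the tools named were Bowtie2 2.2.3, TopHat2 2.0.12 and CASAVA, per the submitters' processing notes. How reads were counted, on which annotation and with what strand setting was not given in the sources used here.

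The labels gave groups and replicate numbers, and separate cultures of 1 clone make up each group, so p-values measure the spread between cultures. Genes were kept with the edgeR filterByExpr rule by group. One model of the 6 group means over 18 libraries was fitted with edgeR 4.0.16 in R 4.3.3 (TMM scaling, two-sided quasi-likelihood F test, Benjamini-Hochberg over all genes tested, called at an adjusted p under 0.05). Differences between responses were contrasts of that model. The SE is the log2 fold change divided by the root of F. The biological coefficient of variation was 6.25%, pooled over lines whose spread was unequal. Intervals of low counts are exact (Clopper-Pearson) and cover counting error only. Where neither group had over 3 counts, no fold was computed.

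Exon lengths and positions came from GENCODE on GRCm38, with all annotated exons of a gene merged for its length. In simulated counts for the mouse Dux comparison with 13065 genes in the fit, 92.9% of genes changed by 1 and 67% of those changed by 0.5 on the log2 scale were called. The alternatives were median-of-ratios scaling, library size alone, DESeq2 1.42.0, no filter, only the groups compared, a replicate block and leaving out each library. Fits without mouse Dux replicate 1 in both groups were added after seeing the data. Values in every library are given for the members with the largest called changes in each response and the largest differences, and for Hif1a, Slc2a1, Ldha and Gapdh. From each other list the 3 largest called rises and falls with either factor are named, apart from some that are not reported here. The members and lists were chosen with earlier results of these data known.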

Additional observations from a re-analysis of the deposited data

Results flagged for a closer look

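The responses to the 2 factors differed at an edgeR adjusted p under 0.05 for 31 members, the responses to mouse Dux and luciferase for 31, and the responses to human DUX4 and luciferase for 25. Of all genes, 65.2%, 60% and 55% differed in the same comparisons, in that order. The members called in opposite directions are given here by the difference of their log2 fold changes, and no explanation was tested. Opposite directions were not counted over all genes.

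For mouse Dux less human DUX4 the difference was 1.04 for Egln3, −1.92 for Mxi1, 1.82 for Slc2a1, −1.46 for Hk1, −0.58 for Gpi1, −0.59 for Aldoa, 1.12 for Pgam1, 0.53 for Ldha, 0.94 for Pfkfb4, 2.38 for Vegfa and 1.26 for Higd1a. The opposite directions of Aldoa, Ldha and Pgam1 rest on small changes in 1 of the lines, since the human DUX4 call of Aldoa was lost when any library of that line was left out and the mouse Dux rises of Ldha and Pgam1 turned with scaling by library size alone.

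For mouse Dux less luciferase the difference was 1.16 for Egln3, −1.39 for Mxi1, −1.25 for Bhlhe40, 2.70 for Aldoc, 0.72 for Pgam1, 0.67 for Pkm, 0.74 for Ldha, 0.71 for Pfkfb4, 1.76 for P4ha2 and 1.47 for Higd1a. For human DUX4 less luciferase it was −1.58 for Bhlhe40, 0.36 for Gpi1, 0.54 for Aldoa, 0.47 for Gapdh, −2.64 for Vegfa and 2.55 for Plod2. Several of these opposite directions also rest on a weak call in 1 of the lines. The luciferase calls of Mxi1, Aldoc, Pfkfb4 and P4ha2 were lost with some library left out, as were the human DUX4 calls of Aldoa and Gapdh. With library size alone the mouse Dux rises of Ldha and Pgam1 turned and that of Pkm was not called.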

How the results depend on the processing

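Scaling by library size alone changed the most. It shifted the median of all genes by −0.24 in the mouse Dux response, −0.20 in mouse Dux less human DUX4 and −0.26 in mouse Dux less luciferase. With it 17 members fell in the mouse Dux response in place of 11, and of all genes called there 31.6% were higher, against 49.5% with TMM. The split moved to 38.8% from 50.4% for mouse Dux less human DUX4 and to 32.2% from 50.7% for mouse Dux less luciferase. The directions of Pgam1 (−0.065), Ldha (−0.073) and Ndrg1 (−0.024) in the mouse Dux response and of Tpi1 (−0.0052) in mouse Dux less luciferase were reversed. The cause was not tested.

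With 1 library left out, called members numbered 16 to 17 higher and 11 to 13 lower with mouse Dux, 12 to 13 and 15 with human DUX4, and 4 to 5 and 15 to 17 with luciferase. Over the called members and named genes, 1921 of these values kept their direction and their side of the threshold and 101 lost the call, none reversed. Calls of the differences that were lost with some library left out were those of Egln1, Slc16a3, Hk2 and Tpi1 between the factors, Kdm3a, Vegfa and Tpi1 between mouse Dux and luciferase, and Ldha between human DUX4 and luciferase. When the fit held only the groups compared, the mouse Dux rises of Pgam1 (edgeR adjusted p 0.0781) and Ldha (0.0959) were not called. The deviations of same-numbered cultures from their group means correlated at 0.219, 0.105 and 0.080 in the mouse Dux line, and between −0.03 and 0.03 elsewhere. Mouse Dux cultures 2 and 3 gave like values across numbers, 0.093 and 0.087. Pairs of a culture 1 with a culture 2 or 3 there gave −0.165 to −0.125. The numbers were thus not taken as pairs. A replicate block lost no member's call and called 9569 genes with mouse Dux in place of 9371. Genes under a few counts per library, such as Adm and Car9 in the human DUX4 line, cannot show a moderate change at this depth.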
